A study of Mus musculus with 6 samples.

Results

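The imprinted Dlk1-Dio3 locus of mouse chromosome 12 was examined in embryonic stem cells of Pml-/- and wild-type genotype. Its 6 genes of interest were chosen by name, and all 6 were found among the 24421 genes of the deposited expression table. These were the maternally expressed noncoding RNA genes Meg3, Rian and Mirg and the paternally expressed coding genes Dlk1, Rtl1 and Dio3. Polyadenylated RNA was sequenced from 2 libraries of Pml-/- cells and 2 libraries of wild-type cells. The PML protein is the scaffold of PML nuclear bodies. Both genotypes were of E14, a male mouse embryonic stem cell line, and grew in medium with leukemia inhibitory factor and 2 inhibitors, CHIR99021 against GSK3 and PD0325901 against MEK. All 4 were also treated for 15 h with 10 µM paraquat, which makes superoxide in cells by redox cycling. The comparison therefore addresses the effect of genotype under paraquat and not the response to paraquat.

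In an imprinted locus, each gene is transcribed mainly from the allele inherited from 1 parent. At Dlk1-Dio3, a differentially methylated region between Dlk1 and Meg3 separates the parental states: the unmethylated maternal copy expresses the noncoding RNAs, and the methylated paternal copy expresses the coding genes. The maternal noncoding RNAs are the source of a large cluster of microRNAs and C/D box small nucleolar RNAs. In mouse stem cells the locus is known for losing maternal noncoding expression in some lines. Reads in these libraries were not separated by allele, so maternal and paternal name the allele a gene is known to use and not a measurement.

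Library depth was 38150397 and 43715807 reads in Pml-/- cells and 31384794 and 44130093 reads in wild-type cells. Levels are CPM (counts per 1000000 reads counted in genes), given as mean ± SD with n = 2. Pml itself had 78.7 and 89.7 CPM in Pml-/- cells, against 238 and 228 CPM in wild-type cells. The disrupted part of the gene is unstated in the sources used here. Of the ES cell markers, 10 of 10 were tested and their summed level was 7226 and 7265 CPM in Pml-/- cells and 7113 and 7168 CPM in wild-type cells. The 4 tested Y-linked genes were all lower in Pml-/- cells, at 2.55 to 9.58% of the wild-type level, so the 2 cell populations differed in more than the Pml gene, and the contributions of Pml and of that other difference to any result below cannot be told apart. The number of clones behind the Pml-/- cells is unstated there too. The library kit entry of wild-type replicate 2 names a DNA kit in place of the RNA kit named for the other 3 libraries.

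The 3 maternally expressed noncoding RNAs and Dlk1 were lower in Pml-/- cells, Dio3 was higher, and Rtl1, which had too few reads for the test, was lower in CPM. For each of the 6 genes, both Pml-/- libraries lay on the same side of both wild-type libraries. Differences were tested with limma on log2(CPM + 1) over the 12710 genes that averaged 1 CPM or more, and a gene was called at a Benjamini-Hochberg adjusted p under 0.05. Of the 6 genes, 5 passed the filter and 5 were called, 4 lower and 1 higher; of all tested genes 5.41% were called, 3.45% as lower and 1.95% as higher. The share of tested genes with both Pml-/- libraries below both wild-type libraries was 25.5%, and the share with both above was 23.8%. In the authors' deposited table, all 6 genes had a false discovery rate under 0.05, where 3.8% of 24421 genes passed, 2.38% as lower and 1.42% as higher in Pml-/- cells. On the recovered reads, edgeR called 4.19% and DESeq2 3.76% of the genes they tested; edgeR called all 6 genes and DESeq2 called Dlk1, Rian and Mirg and gave Rtl1 no adjusted p. Without wild-type replicate 2, the library with the DNA kit entry, the log2 fold changes were -1.10 for Meg3, -0.66 for Dlk1 and 0.65 for Dio3. They were -0.59 for Rian and -1.04 for Mirg. That fit has a lone wild-type library and takes its variances almost entirely from the trend over all genes. Its calls therefore cannot show whether the kit entry matters. In these bulk samples, fewer cells expressing a gene and less RNA per cell cannot be told apart. Nothing in the labels says that replicate libraries were separate cultures, so the spread between libraries behind the p-values may be technical. The limma p-values and intervals do not rest on a gene's own libraries alone, because variances were drawn toward a trend over all tested genes. For a gene with a wide spread between replicates, such as Meg3, this gives a smaller SE than its own libraries would.

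**Figure D1:**
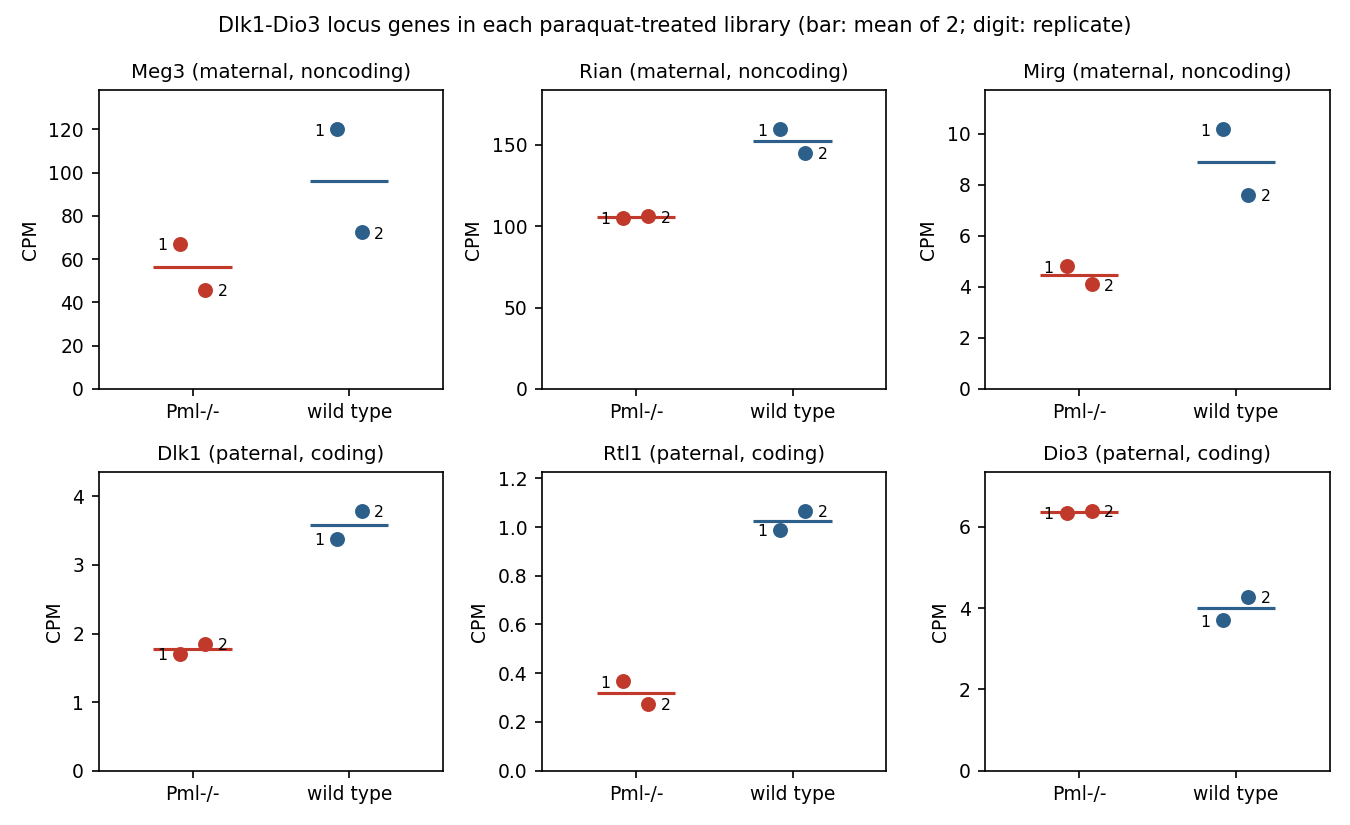
Level of each of the 6 locus genes in CPM (linear axis from 0) in the 2 Pml-/- libraries (left, red) and the 2 wild-type libraries (right, blue); points are libraries, digits are replicate numbers and bars are means of 2. Dio3 lies higher in the Pml-/- libraries, and the other 5 genes lie higher in the wild-type libraries.

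Meg3 is a nuclear long noncoding RNA gene and the start of maternal transcription at the locus (chr12:109540996-109571729, mm10). RefSeq lists 2 promoter windows for Meg3, each from 250 bases before to 50 bases after a start. The downstream window (GRCm38.p6, chr12:109545148-109545447, plus strand) holds 1 CpG dinucleotide and none of the 4 motifs searched. The upstream window (GRCm38.p6, chr12:109540746-109541045, plus strand) is shown because all 3 noncoding RNAs lie downstream of it. Capitals mark 4 motifs that were searched on both strands.
Meg3 promoter: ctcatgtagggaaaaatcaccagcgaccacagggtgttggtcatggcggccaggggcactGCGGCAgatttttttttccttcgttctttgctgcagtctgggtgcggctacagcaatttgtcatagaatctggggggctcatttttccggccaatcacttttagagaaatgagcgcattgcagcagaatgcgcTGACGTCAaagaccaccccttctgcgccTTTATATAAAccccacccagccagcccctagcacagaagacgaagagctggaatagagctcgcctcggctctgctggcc
The window holds 13 CpG dinucleotides, against a median of 7 over 32851 RefSeq windows. TATAAA, the core of the TATA box, was found 1 time on each strand as an overlapping pair 29 and 25 bases before the start, and 13.6% of windows hold it. TGACGTCA, the cyclic AMP response element, was found 57 bases before the start, and 1.79% of windows hold it. TGCCGC, the core bound by the imprint maintenance factor ZFP57, was found on the other strand 190 bases before the start, and 11.6% of windows hold it. GGGCGG, the GC box, was not found in this window. These matches are letters in the sequence, and binding was not measured. The intergenic differentially methylated region named above lies outside this window. Whether the window itself is methylated differently on the 2 alleles was not measured.

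Meg3 had 67.1 and 45.9 CPM in Pml-/- cells, against 120.0 and 72.3 CPM in wild-type cells. The groups did not overlap, but replicate 1 was well above replicate 2 in both genotypes, by 1.46-fold in Pml-/- cells and 1.66-fold in wild-type cells. The mean was 56.5 ± 15.0 CPM in Pml-/- cells and 96.2 ± 33.7 CPM in wild-type cells, 1.70-fold lower (log2 fold change -0.74, SE 0.17, 95% interval -1.11 to -0.37, limma adjusted p = 0.0221). The spread of the Meg3 libraries alone would give a larger SE and a wider interval. Of the 5 called genes Meg3 moved furthest when a library was left out. Its log2 fold change was -0.47 without Pml-/- replicate 2, where limma did not call it, and -0.38 without wild-type replicate 1. DESeq2 on the recovered reads did not call it (log2 fold change -0.76, adjusted p = 0.464), while edgeR's quasi-likelihood test did (-0.76, adjusted p = 0.0213).

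Rian, the host of a C/D box small nucleolar RNA cluster, lies downstream of Meg3 (chr12:109603945-109661716). It had 104.8 and 106.0 CPM in Pml-/- cells, against 159 and 145 CPM in wild-type cells. Its libraries were the closest to each other within the groups among the 3 noncoding RNAs. Rian averaged 105.4 ± 0.83 CPM in Pml-/- cells and 152 ± 10.2 CPM in wild-type cells, 1.44-fold lower (log2 fold change -0.52, SE 0.054, 95% interval -0.64 to -0.41, limma adjusted p = 2.74e-05). It was called under each of the 13 alternative settings, with a log2 fold change from -0.59 to -0.46. The RefSeq window at its start (chr12:109603695-109603994, GRCm38.p6) holds 0 CpG dinucleotides and none of the 4 motifs searched.

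Mirg, a noncoding RNA gene over a large microRNA cluster, is the most distal of the 3 (chr12:109734981-109749458). It had 4.80 and 4.09 CPM in Pml-/- cells, against 10.2 and 7.59 CPM in wild-type cells. All 4 libraries had at least 179 reads for Mirg, and the groups were well apart. Mirg averaged 4.45 ± 0.50 CPM in Pml-/- cells and 8.88 ± 1.82 CPM in wild-type cells, 2.00-fold lower (log2 fold change -0.85, SE 0.145, 95% interval -1.16 to -0.54, limma adjusted p = 0.00299). It too was called under each of the 13 alternative settings, with a log2 fold change from -1.04 to -0.66 and adjusted p up to 0.0499. The RefSeq window at its start (chr12:109734731-109735030, GRCm38.p6) holds 10 CpG dinucleotides and none of the 4 motifs.

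Whether the 3 noncoding RNAs fell by different amounts was examined as the log2 difference between a pair of genes within each library, in which gene length cancels between genotypes. Rian minus Meg3 was 0.64 and 1.19 in Pml-/- cells and 0.41 and 0.99 in wild-type cells, so the groups overlapped. Mirg minus Meg3 was -3.55 and -3.20 in Pml-/- cells and -3.44 and -3.09 in wild-type cells, and these groups overlapped as well. Mirg minus Rian was -4.19 and -4.39 in Pml-/- cells and -3.84 and -4.09 in wild-type cells, a difference of -0.33 between genotypes with no overlap. A 2-sided exact permutation test over 4 libraries cannot give p below 0.333; it gave p = 0.667, 0.667 and 0.333 for the 3 pairs. Mirg took 2.71 and 2.62% of the reads of the 3 RNAs in Pml-/- cells and 3.51 and 3.38% in wild-type cells, while the shares of Meg3 and Rian overlapped between genotypes.

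Dlk1 encodes a transmembrane protein of the epidermal growth factor repeat family that is related to Notch ligands (chr12:109452485-109463336). Its RefSeq promoter window (GRCm38.p6, chr12:109452573-109452872, plus strand) is shown for contrast with that of Dio3, the other tested paternal gene, which moved the opposite way. The window lies wholly inside the annotated span of Dlk1, so it does not cover the first base of that span.
Dlk1 promoter: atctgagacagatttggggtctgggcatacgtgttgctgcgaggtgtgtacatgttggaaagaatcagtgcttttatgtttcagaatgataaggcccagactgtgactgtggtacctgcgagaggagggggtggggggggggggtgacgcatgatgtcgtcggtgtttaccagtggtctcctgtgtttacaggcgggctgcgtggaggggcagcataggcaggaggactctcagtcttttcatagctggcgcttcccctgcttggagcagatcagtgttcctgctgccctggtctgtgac
It holds 9 CpG dinucleotides and none of the 4 motifs, so no letter is in capitals. Dlk1 had 1.70 and 1.85 CPM in Pml-/- cells, against 3.38 and 3.78 CPM in wild-type cells. The groups were far apart compared with the difference between replicates. The recovered reads behind these values were 65 and 81 in Pml-/- cells and 106 and 167 in wild-type cells. Dlk1 averaged 1.78 ± 0.11 CPM in Pml-/- cells and 3.58 ± 0.29 CPM in wild-type cells, 2.01-fold lower (log2 fold change -0.72, SE 0.154, 95% interval -1.05 to -0.39, limma adjusted p = 0.0120). The log2(CPM + 1) scale understates the change of such low genes; edgeR on the recovered reads gave -1.01 (adjusted p = 0.0151). The limma call was lost without Pml-/- replicate 1 (-0.68, adjusted p = 0.0657) and without Pml-/- replicate 2 (-0.76, adjusted p = 0.059), where the lone Pml-/- library was assumed to vary like the wild-type pair.

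Rtl1 is a retrotransposon-derived gag-pol-like gene with a role in the placenta (chr12:109564900-109604418). It had 0.367 and 0.275 CPM in Pml-/- cells, against 0.988 and 1.07 CPM in wild-type cells. This is 14 and 12 reads in Pml-/- cells and 31 and 47 reads in wild-type cells, and the groups did not overlap. The mean over the 4 libraries was under 1 CPM, so limma did not test it; in CPM it averaged 0.32 ± 0.065 in Pml-/- cells and 1.03 ± 0.055 in wild-type cells, 3.20-fold lower. Per read sequenced, the Pml-/- level was 30.7% of wild type, with an exact 95% interval of 18.9 to 48.5% that covers counting error only. The authors' deposited table gave a log2 fold change of 1.68, wild type over Pml-/-, with a false discovery rate of 0.000423. The annotated span of Rtl1 overlaps that of Meg3 by 6830 bases and that of Rian by 474 bases. The sources used here do not state whether counting used strand, so reads of Rtl1 and of transcripts across it cannot be told apart.

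Maternal transcription across Rtl1 carries microRNAs that are known in mouse to pair perfectly with Rtl1 messenger RNA. Of these, 5 mature sequences from RefSeq (GRCm38.p6) are shown, since their hairpins lie inside the Rtl1 span; capitals mark the seed, bases 2 to 8.
mmu-miR-431-5p: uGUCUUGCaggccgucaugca
mmu-miR-433-3p: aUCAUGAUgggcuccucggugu
mmu-miR-127-3p: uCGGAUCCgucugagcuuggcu
mmu-miR-434-3p: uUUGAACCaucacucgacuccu
mmu-miR-136-5p: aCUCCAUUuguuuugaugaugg
The 5 seeds differ from one another. They lie at chr12:109590459-109590479, chr12:109591781-109591802, chr12:109592888-109592909, chr12:109594565-109594586 and chr12:109595331-109595352, all on the plus strand. Each of the 5 hairpin rows had 0 reads in all 4 libraries. Libraries of polyadenylated RNA do not capture mature microRNAs, so these rows do not measure them.

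Dio3 encodes the type 3 deiodinase, the enzyme that inactivates thyroid hormone (chr12:110279230-110281097). Its RefSeq promoter window (GRCm38.p6, chr12:110278980-110279279, plus strand) is shown because it was the only gene of the 6 that was higher in Pml-/- cells.
Dio3 promoter: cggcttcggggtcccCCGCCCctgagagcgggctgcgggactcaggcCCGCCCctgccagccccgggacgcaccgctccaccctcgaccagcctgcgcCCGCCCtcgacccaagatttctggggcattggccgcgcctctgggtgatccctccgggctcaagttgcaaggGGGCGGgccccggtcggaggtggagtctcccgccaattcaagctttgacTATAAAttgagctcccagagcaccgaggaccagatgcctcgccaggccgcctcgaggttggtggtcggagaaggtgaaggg
It holds 25 CpG dinucleotides, 1 TATAAA 31 bases before the start and 4 copies of the GC box GGGCGG, 3 of them on the other strand; 35.7% of windows hold a GC box. Dio3 had 6.34 and 6.38 CPM in Pml-/- cells, against 3.70 and 4.28 CPM in wild-type cells. The Pml-/- libraries were nearly equal and lay above both wild-type libraries. Dio3 averaged 6.36 ± 0.027 CPM in Pml-/- cells and 3.99 ± 0.41 CPM in wild-type cells, 1.59-fold higher (log2 fold change 0.56, SE 0.134, 95% interval 0.28 to 0.85, limma adjusted p = 0.0230). The recovered reads were 242 and 279 in Pml-/- cells and 116 and 189 in wild-type cells. The call was lost without wild-type replicate 1 (0.48, limma adjusted p = 0.0991), without Pml-/- replicate 1 (0.57, 0.0847) and without Pml-/- replicate 2 (0.56, 0.131). DESeq2 did not call it either (0.67, adjusted p = 0.0826). The antisense gene Dio3os had 8 and 6 reads in Pml-/- cells and 5 and 9 reads in wild-type cells, 92.2% of wild type per read sequenced, with an exact 95% counting interval of 40.8 to 208.7%.

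Set against each other, the maternal noncoding sum was lower in Pml-/- cells, while the paternal sums overlapped, with Dlk1 and Rtl1 lower and Dio3 higher. Meg3, Rian and Mirg together had 177 and 156 CPM in Pml-/- cells, against 290 and 225 CPM in wild-type cells. Dlk1, Rtl1 and Dio3 together had 8.41 and 8.51 CPM in Pml-/- cells, against 8.06 and 9.13 CPM in wild-type cells. The maternal sums did not overlap between genotypes. The ratio of maternal to paternal reads was 21.0 and 18.3 in Pml-/- cells and 35.9 and 24.6 in wild-type cells. The ratio to Dlk1 and Rtl1 alone was 85.4 and 73.4 in Pml-/- cells and 66.3 and 46.4 in wild-type cells. The direction of the ratio between the maternal and paternal genes thus turned on whether Dio3 was counted. These sums are of reads and weight a gene by its length as well as its abundance, so they compare genotypes and not genes; they received no test.

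Shares of the paternal reads restate the Dlk1 and Dio3 values above and are not a separate result. Dio3 took 75.4 and 75.0% of the paternal reads in Pml-/- cells, against 45.8 and 46.9% in wild-type cells. Dlk1 took 20.2 and 21.8% in Pml-/- cells, against 41.9 and 41.4% in wild-type cells. Replicates differed by less than 2 percentage points in each of these 4 pairs. The ratio of Dio3 to Dlk1 reads was 3.72 and 3.44 in Pml-/- cells, against 1.09 and 1.13 in wild-type cells, or 3.58 ± 0.20 and 1.11 ± 0.026 on average.

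**Figure D2:**
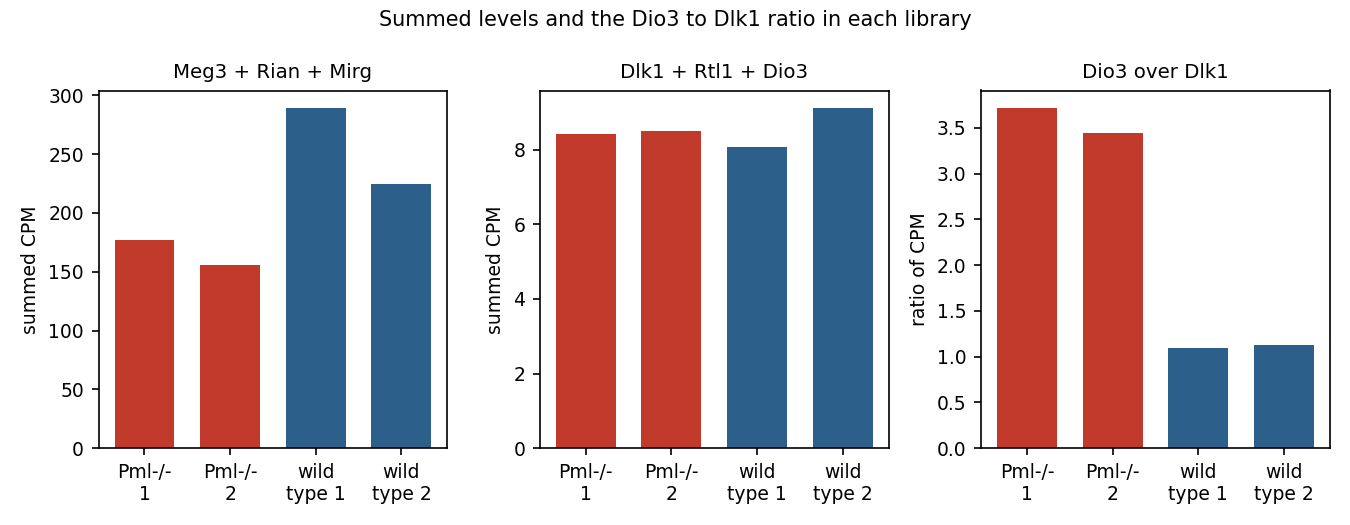
Summed CPM of Meg3, Rian and Mirg (left), summed CPM of Dlk1, Rtl1 and Dio3 (middle) and the ratio of Dio3 to Dlk1 CPM (right) in each Pml-/- library (red) and each wild-type library (blue), on linear axes from 0. The left and right panels separate the genotypes, with the ratio at 3.44 to 3.72 in Pml-/- cells and 1.09 to 1.13 in wild-type cells; the paternal sums overlap.

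From the start of Dlk1 to the end of Dio3 the locus spans 828.6 kb, with a gap of 77.7 kb between Dlk1 and Meg3 and of 529.8 kb between Mirg and Dio3. The expression table holds 71 other genes in this span, of which 22 had a read in at least 1 library. The 61 microRNA rows together had 21 reads in Pml-/- cells and 34 reads in wild-type cells. Mir3072 had 7 and 2 reads in Pml-/- cells and 10 and 5 reads in wild-type cells. The other microRNA rows with reads, at 4 or fewer per library, were Mir493, Mir3070a, Mir3070b, Mir341, Mir1188, Mir382, Mir134, Mir485, Mir453, Mir377, Mir541, Mir409 and Mir412. All 7 small nucleolar RNA rows had reads, 175 in Pml-/- cells and 165 in wild-type cells. Of these reads, most were of AF357359, a small nucleolar RNA gene inside Rian, with 72 and 75 reads in Pml-/- cells and 74 and 68 reads in wild-type cells. It was the only other tested gene of the span, and it was not called (log2 fold change -0.06, limma adjusted p = 0.896), while its host Rian fell. The difference between the 2 genes was not tested. The row lies inside Rian and the libraries are of polyadenylated RNA, so its reads do not measure the mature small nucleolar RNA. AF357425, AF357426, DQ267100, DQ267101, AF357355 and DQ267102 had at most 8 reads in any library.

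Of 28 genes within 1 Mb of either end of the locus, 20 were tested; 0 were called lower and 1 higher. This is 5% called, near the 5.41% of all tested genes. Their median log2 fold change was -0.03, with a range from -0.40 to 0.27. At an unadjusted limma p under 0.05 there were 5, which is 25% against 19.3% of all tested genes; with edgeR and with DESeq2 1 gene was called. The called gene was Hsp90aa1, the cytosolic heat shock protein 90, with 2893 and 2796 CPM in Pml-/- cells and 2407 and 2509 CPM in wild-type cells (log2 fold change 0.21, limma adjusted p = 0.0108); this call was lost without wild-type replicate 1 (0.18, adjusted p = 0.145). The nearest tested gene on the Dlk1 side, Begain, a synaptic scaffold gene, had 5.24 and 5.60 CPM in Pml-/- cells and 8.09 and 6.68 CPM in wild-type cells (-0.38, limma adjusted p = 0.116, but 0.0421 without wild-type replicate 2). The nearest on the Dio3 side, Ppp2r5c, a regulatory subunit gene of protein phosphatase 2A, had 258 and 291 CPM in Pml-/- cells and 278 and 274 CPM in wild-type cells (-0.01, adjusted p = 0.953). The untested B930059L03Rik, a noncoding RNA gene named after its values were known, had 12 and 18 reads in Pml-/- cells and 22 and 42 reads in wild-type cells. Its Pml-/- libraries lay below both wild-type libraries, as they did for 25.5% of all tested genes. Its level was 43.2% of wild type per read sequenced, with an exact 95% counting interval of 27.0 to 67.7%. The interval does not allow for the choice of this gene by its values. Over chromosome 12, 12 of 450 tested genes were called lower and 12 higher, with a median of -0.01; this is 5.33% called, near the 5.41% of all tested genes.

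**Figure D3:**
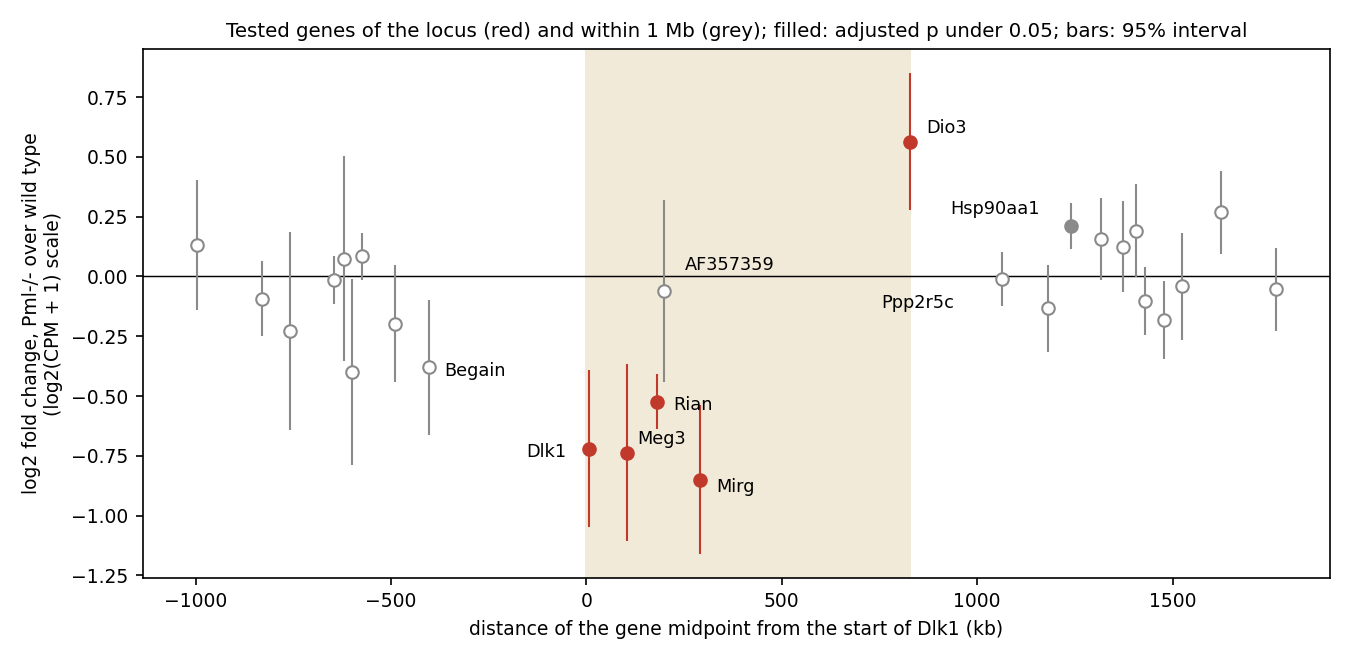
Log2 fold change (Pml-/- over wild type, log2(CPM + 1) scale, vertical axis) of every tested gene against the distance of its midpoint from the start of Dlk1 in kb; red points are locus genes, grey points other genes, filled points were called, bars are 95% intervals and shading marks the locus. Dlk1, Meg3, Rian and Mirg lie below 0 and Dio3 above it, and Hsp90aa1 is the only filled grey point.

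Imprinted genes on other chromosomes were compared by the allele they are known to use. Of 28 listed paternally expressed genes 21 were tested, of which 11 were lower and 1 higher in Pml-/- cells. This is 57.1% called, against 5.41% of all tested genes, and the median log2 fold change was -0.40, against 0.00 over all tested genes. Plagl1, a zinc finger gene known as a regulator of other imprinted genes, had 43.5 and 46.3 CPM in Pml-/- cells, against 118 and 131 CPM in wild-type cells (-1.45, limma adjusted p = 8.98e-10). Zdbf2 (-0.61), Impact (-0.47) and Peg13 (-1.63) fell too, and Sfmbt2, a polycomb group gene, rose (0.46, limma adjusted p = 0.000754). Of 24 listed maternally expressed genes 15 were tested, of which 2 were lower and 3 higher, with a median of 0.08; 33.3% were called, against 5.41% of all tested genes. H19, a noncoding RNA gene, had 3.85 and 5.97 CPM in Pml-/- cells, against 9.88 and 10.7 CPM in wild-type cells (-0.95, limma adjusted p = 0.00199), and Igf2r fell as well (-0.49). Grb10, a growth receptor adaptor gene (0.88), and Phlda2, a placental growth gene (0.76), rose. Dlk1 thus fell like most of the called paternal genes, Dio3 rose like Sfmbt2, and the called maternal genes of other loci moved in both directions.

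**Figure D4:**
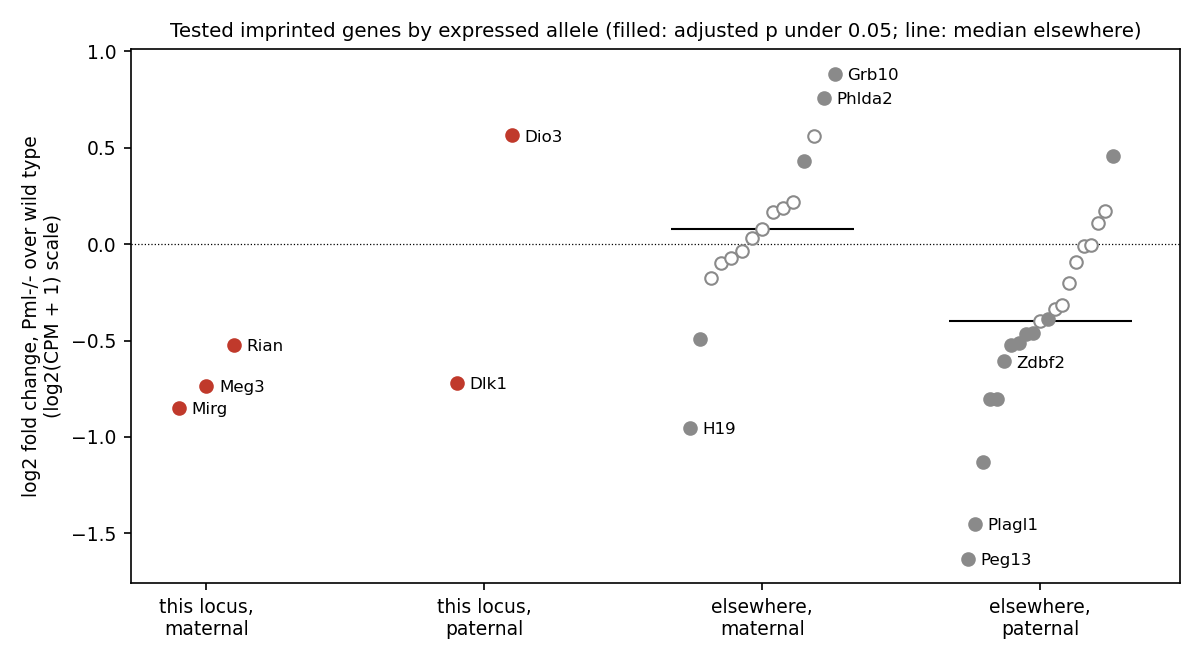
Log2 fold change (Pml-/- over wild type, log2(CPM + 1) scale) of the tested imprinted genes of the Dlk1-Dio3 locus (red) and of other loci (grey), by the parental allele each is known to use; each point is a gene, filled points were called, and lines are medians of -0.40 for other paternal genes and 0.08 for other maternal genes. The 3 maternal genes of the locus all lie below 0.

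The 20 listed regulators of imprinting at the locus were not all factors that set or keep DNA methylation. They also held the methylcytosine oxidase genes Tet1, Tet2 and Tet3 and the polycomb genes Eed, Ezh2, Suz12 and Jarid2. All 20 were tested, 6 were lower and 0 higher. This is 30% called lower, against 3.45% of all tested genes, and the median log2 fold change was -0.09. Dnmt3l, a cofactor of de novo DNA methylation, had 136 and 131 CPM in Pml-/- cells, against 195 and 155 CPM in wild-type cells (-0.38, limma adjusted p = 0.00859). Tet3, a methylcytosine oxidase (-0.41), Uhrf1, which recruits the maintenance methyltransferase (-0.19), and Jarid2, a polycomb cofactor (-0.20), were also called lower. The count of called factors was 0 without wild-type replicate 1, 3 without Pml-/- replicate 2 and 0 with no filter on low values. Zfp57, whose protein protects imprints from demethylation, had 437 and 372 CPM in Pml-/- cells and 486 and 372 CPM in wild-type cells (-0.08, limma adjusted p = 0.707), and Trim28, its partner, had 2875 and 2736 CPM in Pml-/- cells and 2797 and 2808 CPM in wild-type cells (0.00, adjusted p = 0.993). Zfp57 and Trim28 were picked from the list by their role at imprints, after their values were seen. DNA methylation itself was not measured in these libraries.

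The pathways in which the coding genes act were examined from fixed lists. Of 21 Notch pathway genes, chosen because DLK1 is known as a Notch ligand relative, 16 were tested and 2 were lower, the receptor genes Notch1 (109 and 108 CPM in Pml-/- cells, 119 and 134 CPM in wild-type cells, -0.22, limma adjusted p = 0.0439) and Notch4 (29.0 and 29.9 CPM in Pml-/- cells, 38.1 and 34.1 CPM in wild-type cells, -0.28, adjusted p = 0.0465). This is 12.5% called lower, against 3.45% of all tested genes. The count was 0 without either Pml-/- library, 1 without wild-type replicate 1 and 0 with DESeq2. Of 14 genes of thyroid hormone handling, the setting in which Dio3 works, 9 were tested and 0 were called by limma, edgeR or DESeq2. With limma 5.41% of all tested genes were called. At an unadjusted limma p under 0.05 there were 2, against 19.3% of all tested genes. With 9 genes, neither count stands apart from these shares. The median log2 fold change was 0.00. Dio1, the gene of a liver and kidney deiodinase, had 0 reads in all 4 libraries.

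Markers of cell types other than stem cells were listed because several of them express Dlk1 or Meg3. Fibroblast markers summed to 65.0 and 65.8 CPM in Pml-/- cells and 62.4 and 60.1 CPM in wild-type cells, with 0 of 4 tested called by limma, 1 of 4 at an unadjusted p under 0.05, and Dcn at 0. Primitive endoderm markers summed to 9.31 and 11.8 CPM in Pml-/- cells and 9.94 and 8.91 CPM in wild-type cells, with 0 of 3 called, and mesoderm markers to 11.1 and 10.5 CPM in Pml-/- cells and 12.7 and 11.9 CPM in wild-type cells, with 0 of 2 called; at an unadjusted limma p under 0.05 there were 0 in either list. Neural markers summed to 248 and 251 CPM in Pml-/- cells and 273 and 283 CPM in wild-type cells, and 2 of 6 tested were lower, Nes (-0.44) and Sox1 (-0.44). Trophoblast markers summed to 78.0 and 79.2 CPM in Pml-/- cells and 55.7 and 61.8 CPM in wild-type cells, 1 of 2 tested, Tfap2c, was higher (0.44), and Tpbpa, which defines spongiotrophoblast, was at 0. Tfap2c made most of the trophoblast sum, with 70.7 and 71.9 CPM in Pml-/- cells and 49.8 and 55.2 CPM in wild-type cells. Likewise Tubb3 made most of the neural sum and Fbln1 most of the fibroblast sum, so these sums mainly follow 1 gene each. Of the 10 ES cell markers, Zfp42 (-0.27) and Utf1 (-0.43) were lower and Tfcp2l1 (0.29) and Tdgf1 (0.17) higher. The called shares were 33.3% for neural, 50% for trophoblast and 40% for ES cell markers, against 5.41% of all tested genes. At an unadjusted limma p under 0.05 there were 3 of 6 neural, 1 of 2 trophoblast and 7 of 10 ES cell markers. The share of all tested genes at that threshold was 19.3%. The part of these marker differences in the values of the locus genes was not tested.

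For each tested locus gene the 3 genes most alike over the 4 libraries were found by Euclidean distance in log2(CPM + 1) centred on each gene's mean. They were Clybl, Fbxo2 and Snx20 for Dlk1 (distance 0.0905 to 0.103), and Msh5, Fgd5 and Vgll3 for Dio3 (0.0439 to 0.0664). For Rian they were Nsg2, Dtx3l and Rpgrip1 (0.0276 to 0.0456), and for Mirg Ssc5d, Cd200 and Nfix (0.122 to 0.151). For Meg3 they were Kank4os, Nlrp4c and Kcnt1, at larger distances of 0.182 to 0.362. None of the 15 lies on chromosome 12, and no locus gene was among the 3 nearest of another.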

How the data were processed

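Per the submitters' processing notes, the authors trimmed reads with cutadapt, aligned them to mm10 with TopHat and tested genes with edgeR; versions, annotation and strand settings were not given in the sources used here. For each library, the deposited table gives CPM; per gene, it gives the authors' log2 fold change (wild type over Pml-/-), log2 mean level, p-value and false discovery rate. All CPM values (100% within 0.001 reads) were whole multiples of the value of 1 read, 0.0227 to 0.0319 CPM, so reads were recovered.

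From the deposited CPM, limma 3.58.1 (R 4.3.3, limma-trend, genotype only) tested log2(CPM + 1) at a mean of at least 1 CPM, with Benjamini-Hochberg adjustment over 12710 genes. It called 687 (5.41%). edgeR 4.0.16 on recovered reads called 620 of 14782 and DESeq2 1.42.0 called 486 of 12941. On simulated counts over 12702 genes for this comparison, limma recovered 64% of changes of 1.25-fold, 90% at 1.5-fold, 98% at 2-fold and 100% at 4-fold, and 2.23% of its calls were unchanged genes. The simulation gave all genes the same dispersion and mixed changed genes of high and low levels. These shares therefore need not hold for genes with a wider spread between replicates, such as Meg3, or for low genes. Other alternatives were pseudocounts, filters, scalings, left-out libraries and a replicate block. Gene positions, promoters and microRNAs are RefSeq's (GRCm38.p6); 23204 symbols matched directly, 1096 by an older symbol and 121 not, and 5 of 6 locus genes had a promoter entry. Exact permutation tests and read intervals used scipy 1.17.1. Intervals on reads cover counting error only.

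The locus genes, lists and tests were chosen with earlier results of these data known. Named genes were all 6 locus genes; Pml; genes with a read between Dlk1 and Dio3; in the flanks, called genes and the nearest tested gene on each side; up to 4 called genes per list by smallest adjusted p; and the 3 genes nearest in pattern. The 2 chromatin samples of the series were not analysed here.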

Additional observations from a re-analysis of the deposited data

How the results depend on the processing

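Over 69 refits of the 6 locus genes, 0 changed direction. Of these refits, 55 were counted as unchanged, 11 lost the call and 3 gained it. The 55 include Rtl1 with DESeq2, which had no adjusted p. The 3 gains were all of Rtl1, which the main fit did not test. Rtl1 had 26 reads in Pml-/- cells and 78 in wild-type cells, so counting error is largest for it among the 6 genes. With no filter on low values, the total of called genes was 298, that of flanking genes 0, and Dlk1 (-0.72, limma adjusted p = 0.0597), Dio3 (0.56, 0.117) and Meg3 (-0.74, 0.145) were not called, while Rtl1 was (-0.62, 0.0234); it was also called with a filter at 0.5 CPM (-0.62, 0.0468) and with edgeR (-1.68, 0.0398), whereas DESeq2 gave it -1.68 and no adjusted p. Other settings could not test Rtl1. DESeq2 did not call Dio3 (0.67, 0.0826) or Meg3 (-0.76, 0.464). Leaving out 1 library moved the total from 367 (without Pml-/- replicate 2) to 869 (without wild-type replicate 2), with 439 without wild-type replicate 1 and 669 without Pml-/- replicate 1. It moved the flanking count from 1 to 2, Dlk1 from -0.78 to -0.66, Dio3 from 0.48 to 0.65 and Meg3 from -1.10 to -0.38. The log2 ratio of maternal to paternal reads, -0.60, moved from -0.87 to -0.33. Rian minus Meg3, 0.21, was reversed without wild-type replicate 1 (-0.0801) and without Pml-/- replicate 2 (-0.0639) and ranged up to 0.51; Mirg minus Meg3, -0.11, was reversed without wild-type replicate 2 (0.0588) and without Pml-/- replicate 1 (0.0622) and ranged down to -0.29. The replicate numbers are shared by the genotypes, but nothing says that they pair the libraries, and the correlation of same-numbered deviations was 0.12. With a replicate block, 1198 genes and 2 flanking genes were called, and Meg3 had adjusted p = 5.63e-11. The cause of these changes was not tested.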

Other observations

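Of 18 retrotransposon-derived gag genes related to Rtl1, 11 were in the table and 3 were tested. Of these 3, 1 was called, which is 33.3% against 5.41% of all tested genes. Peg10, another imprinted gag gene with a role in the placenta, had 71.5 and 74.5 CPM in Pml-/- cells, against 98.4 and 103 CPM in wild-type cells, and was called lower (log2 fold change -0.46, limma adjusted p = 0.000128). It is also among the 11 paternally expressed genes of other loci counted as lower above, so it is not a separate result. Of 13 listed genes of small RNA processing, all were tested and 1 was called. This is 7.69% of the list, near the 5.41% of all tested genes. Beside genes that process or load microRNAs, the list holds Fbl, Nop56, Nop58 and Dkc1, genes of small nucleolar RNA proteins. The called gene was Xpo5, the nuclear exporter of microRNA precursors. It had 204 and 219 CPM in Pml-/- cells and 181 and 186 CPM in wild-type cells (0.20, limma adjusted p = 0.0241). The adjusted p was 0.117 without wild-type replicate 1, 0.136 without Pml-/- replicate 2 and 0.0754 with no filter on low values.

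The excess of Meg3 in replicate 1 over replicate 2 was rare among well expressed genes. Of 9250 genes that averaged 10 CPM or more, only Meg3 and Neat1 differed as far in that direction in both genotypes. Neat1, a nuclear noncoding RNA gene that was picked once its values were known, had 188 and 83.4 CPM in Pml-/- cells and 221 and 117 CPM in wild-type cells, and was not called between genotypes (-0.36, limma adjusted p = 0.53). Mirg, at 1.17-fold in Pml-/- cells and 1.34-fold in wild-type cells, leaned the same way, while Rian stood at 0.99-fold in Pml-/- cells and 1.10-fold in wild-type cells.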
